A study of Mus musculus with 58 samples.

Results

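This report follows 7 genes that are catalogued mostly as long non-coding RNAs with a nuclear location, Malat1, Neat1, Meg3, Rian, Mirg, Miat and Snhg11, through the daily cycle of the control and the diabetic mouse retina. They were taken by symbol from the deposited count table, which lists 52459 symbols, and all 7 were present and passed every filter on low counts. The study asked how diabetes changes the daily rhythm of the retinal transcriptome. The diabetic group consisted of male mice heterozygous for the Ins2Akita allele, a mutation of the insulin 2 gene after which insulin misfolds, beta cells are lost and blood glucose is high from a young age. The control group consisted of male littermates without that phenotype, labelled with the C57/BL/6 genotype. All mice were 4 months old and were kept on a 12 h light and 12 h dark cycle, and at night the tissue was taken under dim red light. The animals were perfused with saline, and each library was made from ribosome-depleted total RNA of a single retina, so transcripts without a poly(A) tail could be read as well. There were 30 control libraries, with 5, 6, 5, 5, 5 and 4 at ZT1, ZT5, ZT9, ZT13, ZT17 and ZT21, and 28 diabetic libraries, with 5, 5, 5, 4, 4 and 5, with zeitgeber time (ZT) counted in hours from lights on. Both groups of animals were sampled across the dark and the light phase, and as every mouse had the same age and sex, the comparisons do not extend beyond young adult males with 1 diabetes allele.

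Long non-coding RNAs act without being translated, and those followed here are known mainly from the nucleus. Malat1 accumulates in nuclear speckles, where splicing factors are stored, and Neat1 is the scaffold of paraspeckles, bodies that hold RNA-binding proteins and edited transcripts. Meg3, Rian and Mirg are transcribed in the same direction from the maternal copy of the imprinted Dlk1-Dio3 domain and host many microRNAs and small nucleolar RNAs, Miat (also called Gomafu) is a nuclear RNA of neurons that is also known from the retina, and Snhg11 is a host gene of small nucleolar RNAs. In bulk tissue, fewer cells of a type and less RNA per cell cannot be told apart.

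The genes are placed on the mouse build GRCm38 with the Gencode M21 annotation. Malat1 (chr19:5795690-5802672, minus strand) and Neat1 (chr19:5824708-5845478, minus strand) are neighbours 22.0 kb apart, and each is covered by 1 exon block. Meg3 (chr12:109541001-109571726), Rian (chr12:109603940-109661716) and Mirg (chr12:109729764-109749460) follow each other on the plus strand with gaps of 32.2 kb and 68.0 kb. Miat lies at chr5:112213228-112229395 on the minus strand, and Snhg11 at chr2:158375638-158386145 on the plus strand. The annotation lists 5 of the 7 as lincRNA, Rian as a processed transcript and Snhg11 as protein coding. By the longest transcript of each gene, Rian had the lowest GC content with 35.8%, and Miat the highest with 55.1%.

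Promoter sequences, 250 bases before to 50 bases after the start used by RefSeq, were found in the RefSeq tables of GRCm38.p6 for 6 of the 7 genes, and not for Neat1. These starts can differ from the Gencode starts given above. They are shown for Malat1 and Snhg11, whose levels moved together among retinas, and for Meg3, the first gene of the imprinted group. Capitals mark matches, on either strand, to the searched motifs: the E-box CACGTG, the cyclic AMP response element TGACGTCA and its core TGACG, the D-box TTATGTAA, the receptor element AGGTCA, the TATA box TATAAA and the CCAAT box CCAAT. The core lies inside the full cyclic AMP response element.
Malat1, chr19:5802623-5802922, minus strand: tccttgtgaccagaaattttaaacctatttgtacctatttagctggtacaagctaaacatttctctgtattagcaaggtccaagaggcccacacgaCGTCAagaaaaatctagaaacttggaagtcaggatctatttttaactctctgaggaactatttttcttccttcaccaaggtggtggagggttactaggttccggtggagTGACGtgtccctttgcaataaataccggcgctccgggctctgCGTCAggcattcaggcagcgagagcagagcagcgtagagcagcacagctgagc
Meg3, chr12:109540746-109541045, plus strand: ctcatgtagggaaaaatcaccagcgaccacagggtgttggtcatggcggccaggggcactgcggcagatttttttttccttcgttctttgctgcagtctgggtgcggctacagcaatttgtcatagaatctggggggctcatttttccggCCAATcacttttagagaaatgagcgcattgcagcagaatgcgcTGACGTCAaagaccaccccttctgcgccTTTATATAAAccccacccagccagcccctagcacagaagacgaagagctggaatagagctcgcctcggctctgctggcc
Snhg11, chr2:158375463-158375762, plus strand: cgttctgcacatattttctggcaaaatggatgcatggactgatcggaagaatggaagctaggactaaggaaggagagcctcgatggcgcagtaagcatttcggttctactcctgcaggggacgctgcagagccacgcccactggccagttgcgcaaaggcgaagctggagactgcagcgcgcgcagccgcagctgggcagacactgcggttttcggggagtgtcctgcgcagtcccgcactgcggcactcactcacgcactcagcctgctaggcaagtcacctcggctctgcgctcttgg

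The Meg3 window held a CCAAT box at position -100 from the start, a full cyclic AMP response element at -57 and overlapping TATA boxes on both strands at -29 and -25. The Malat1 window held the core TGACG at 3 places, at -154, -45 and -3. No motif of this list was found in the windows of Snhg11, Miat and Rian, the Mirg window held a CCAAT box at -184, and the window of another Meg3 start had AGGTCA at -141. The Mirg window (chr12:109734731-109735030) lies inside the gene as placed above and not at its Gencode start. It contains the microRNA genes Mir668 and Mir485. Of 32851 mouse promoters of the same length, 1.79% held TGACGTCA, 20.8% TGACG, 7.15% the E-box, 0.938% the D-box, 16.3% AGGTCA, 13.6% TATAAA and 37.4% CCAAT. A match is a description of letters, and the lack of one says only that these letters are not in the window.

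Depth ranged from 7773117 to 22147398 reads counted on genes per library, with a median of 15406440, and each of the 113 pairs of replicates differed by more than sampling noise. In 3 control libraries (ZT1 replicate 6, ZT17 replicate 5 and ZT21 replicate 2) the summed lens markers reached 28837 to 43469 normalized counts, against at most 977 in the other 55. The tests of genotype, time and rhythm, the ratios and the correlations between the 7 RNAs were therefore also computed without these 3. The retina markers themselves were high, with summed rod markers between 488267 and 759498 normalized counts in each library. At an adjusted p under 0.05 between genotypes in edgeR's test, by which 1.45% of all genes were lower and 1.66% higher in diabetic retinas, 5 of 6 lens genes, 2 of 6 cone genes, 1 of 7 rod genes and 1 of 6 microglia genes were lower in diabetic retinas, and 1 of 4 cornea and ciliary body genes tested was higher. Retinal pigment epithelium markers moved with the time of day: their summed mean was lowest in control at ZT1 with 984 and in diabetic at ZT5 with 444, and highest at ZT21 with 3155 and at ZT13 with 3054. Replicates are single retinas of separate samples, and p-values measure the spread between them.

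Malat1 was among the most abundant transcripts of the retina, Snhg11 was well expressed, and the other 5 were not abundant for their length. Malat1 took 1.47% of all reads on genes on average, from 0.938% to 2.11% between libraries, the 4th highest share of any symbol. In RPKM, reads per kilobase of exon and 1000000 reads, its mean level was 2105 ± 382 (SD, n = 58), the 12th of 48082 symbols with a known length. Snhg11 followed with 53.2 ± 9.68 on this scale and place 433. The remaining levels in RPKM were 3.11 ± 0.504 for Miat, 2.27 ± 0.404 for Meg3, 2.24 ± 0.433 for Mirg, 2.01 ± 0.244 for Rian and 1.49 ± 0.283 for Neat1, below the median of 4.06 over the genes that passed the filter on low counts.

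Per length of exon, the name of abundant RNAs held for Malat1 and Snhg11. A nuclear location could not be examined in RNA of whole retinas. In the order of the RPKM levels, Malat1 was above Snhg11 and Snhg11 above Miat in 58 of 58 libraries, Miat above Meg3 in 56 and Rian above Neat1 in 54. Meg3 and Mirg were not separated, with Meg3 higher in 30 of 58 libraries, and Mirg was above Rian in 40 of 58. In raw reads, Malat1 had from 113723 to 357029 per library, Snhg11 from 3598 to 10814, and the 5 others from 127 (Mirg) to 971 (Meg3), so their single values carry a larger counting error.

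Parts of 3 genes overlap genes on the opposite strand: 24.3% of the exon bases of Miat with Gm26953, 6.79% of Meg3 with Gm26906 and 6.49% of Malat1 with Gm37376. The strand setting of the read counting is not given in the sources used here. Gm26953 had at most 4.14 and Gm26906 at most 1.82 normalized counts in any library. Gm37376, which lies inside the Malat1 exon, had a mean of 43.5 and a range from 15.6 to 80.6, so its reads and those of Malat1 may not have been separated fully.

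No difference between diabetic and control retinas over all time points was detected for any of the 7 genes. Of 18814 genes tested with edgeR's quasi-likelihood test and Benjamini-Hochberg adjustment, 586 (3.11%) passed an adjusted p of 0.05, 1.66% as higher and 1.45% as lower in diabetic retinas, against 0 of these 7. At an unadjusted p under 0.05 there was 1, Miat, where 2924 of all genes (15.5%) passed, and DESeq2 called 673 genes and 0 of the 7.

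Malat1 had 150085 normalized counts in the lowest, 214422 in the median and 266888 in the highest control library, and 146798, 208860 and 292583 in the diabetic libraries. Both ranges lay over each other almost fully, and the means were 212308 ± 30453 for 30 control and 211107 ± 37282 for 28 diabetic libraries (SD). The change was -0.01 on the log2 scale (SE 0.06), with a 95% interval from -8.40% to 8.16%. Neat1 had 308, 450 and 595 normalized counts in the lowest, median and highest control library, and 348, 436 and 632 in diabetic ones. Its log2 fold change was 0.01 (SE 0.06), with an interval from -7.55% to 9.50%. The sign of both values changed between settings.

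The ranges of the imprinted RNAs overlapped between genotypes as well. Meg3 had 403, 562 and 893 normalized counts in the lowest, median and highest control library, and 428, 595 and 860 in diabetic ones, with a log2 fold change of 0.04 (SE 0.06; interval -5.61% to 12.8%). Rian had 395, 528 and 619 in control and 412, 538 and 694 in diabetic libraries, and its log2 fold change was 0.03 (SE 0.04; interval -3.49% to 7.58%). Mirg had 150, 229 and 290 against 172, 242 and 414, and its log2 fold change was 0.11 (SE 0.06; interval -1.61% to 17.6%). For Rian, the least variable of the 7, a difference of more than 7.58% in either direction thus lay outside the interval, while for Mirg one of up to 17.6% remained within it.

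Miat had 255, 407 and 512 normalized counts in the lowest, median and highest control library and 336, 419 and 592 in diabetic ones. Its log2 fold change was 0.11 (SE 0.05; interval 0.370% to 16.8%), with an adjusted p of 0.290 in edgeR's quasi-likelihood test. Snhg11 had 4177, 6560 and 8095 against 4938, 6467 and 9702, with a log2 fold change of 0.04 (SE 0.06; interval -4.97% to 11.8%). The median over all 18814 genes was 0.00 on the log2 scale.

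**Figure D1:**
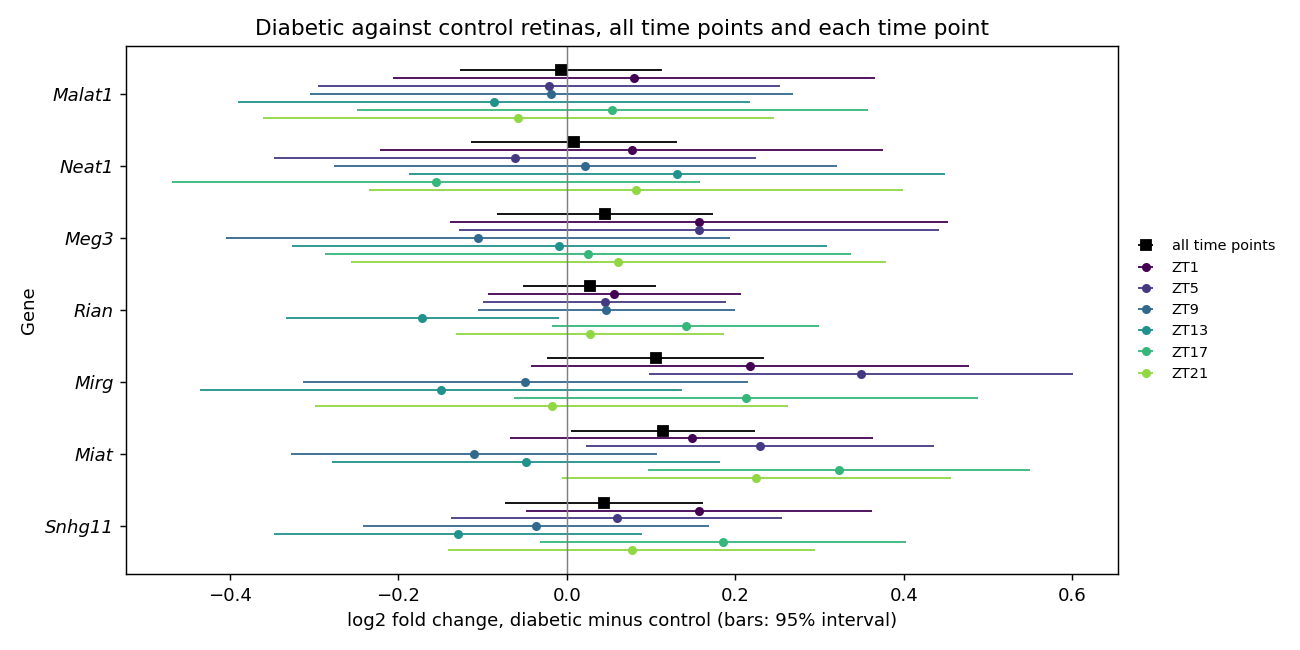
Log2 fold change (diabetic minus control, x axis) of the 7 RNAs (y axis) over all time points (black squares) and at each ZT (coloured points), with 95% intervals from edgeR's quasi-likelihood fit. The black squares lie between -0.01 and 0.11, and the single time points between -0.17 and 0.35.

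At single time points, 0 of the 42 comparisons (7 genes at 6 times) passed the adjusted threshold in edgeR's quasi-likelihood test and 0 in DESeq2, with log2 fold changes from -0.17 to 0.35. The share of all genes that passed was also small: ZT1 0.0106%, ZT5 0.0213%, ZT9 0.00532%, ZT13 0%, ZT17 0.175% and ZT21 0%. Without adjustment 4 of the 42 had p under 0.05, namely Miat at ZT17 and ZT5, Mirg at ZT5 and Rian at ZT13, where the shares of all genes by that rule were 5.49%, 6.1%, 4.44%, 4.48%, 8.94% and 4.67% in the order of the time points. In control retinas at ZT17, the normalized counts of Miat were 321.3, 322.6, 383.0, 319.7 and 329.2, and in diabetic ones 447.7, 427.8, 423.8 and 378.8. The highest control library thus lay just above the lowest diabetic one, and all others were separate. The log2 fold change was 0.32 (SE 0.11), with an adjusted p of 0.266 in edgeR's quasi-likelihood test.

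For Mirg at ZT5, the 6 control libraries had 168 as the lowest, 226 as the median and 264 as the highest normalized count, and the diabetic ones 245.2, 268.1, 255.6, 226.3 and 413.6. The groups overlapped, and 1 diabetic retina stood far above the rest. The log2 fold change of 0.35 (SE 0.13) had an adjusted p of 0.553 in edgeR's test, and without diabetic ZT5 replicate 5 it was 0.16. Miat at ZT5 had a log2 fold change of 0.23 (adjusted p = 0.730 in edgeR's test), and Rian at ZT13 one of -0.17 (adjusted p = 1.00 in the same test).

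The ratios between RNAs of the same chromosome region within a library, which do not depend on how libraries are scaled to each other, did not separate the genotypes either. The log2 ratio of Neat1 to Malat1 reads had a mean of -8.90 with SD 0.15 for 30 control libraries and of -8.88 with SD 0.18 for 28 diabetic ones. They differed by 0.02 (SE 0.04; two-sided permutation p = 0.640). Rian over Meg3 differed by -0.03 (SE 0.07; permutation p = 0.712) and Mirg over Meg3 by 0.04 (SE 0.06; permutation p = 0.442). After Benjamini-Hochberg adjustment over these 3 ratios, all had a permutation p of 0.712.

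**Figure D2:**
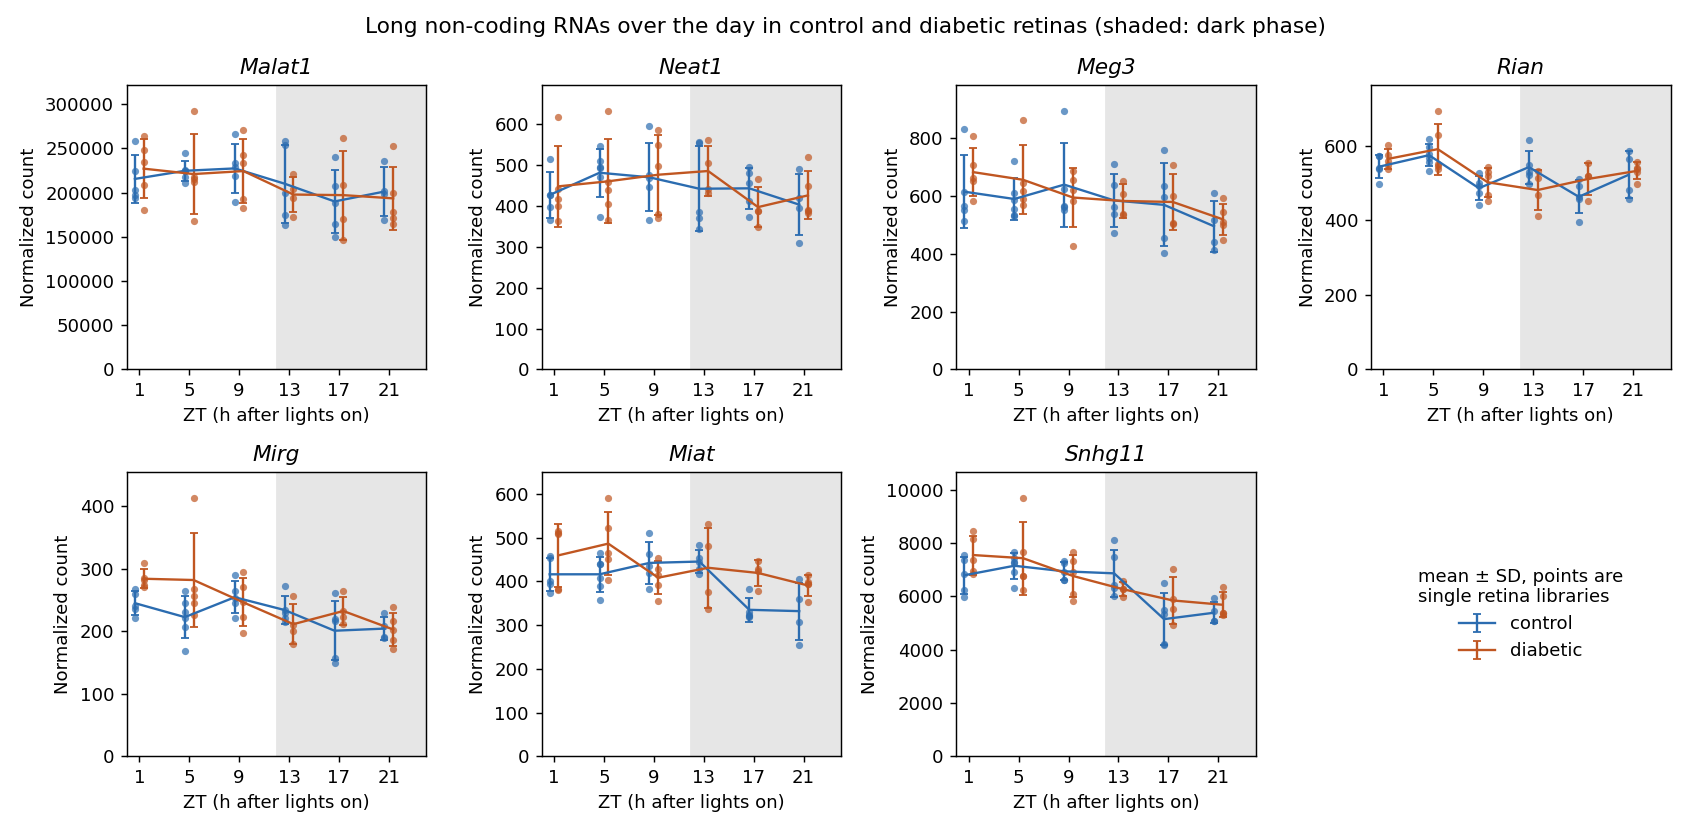
Normalized count (y axis, from 0) of each RNA at 6 ZT points (x axis, hours after lights on; dark phase shaded) in control (blue) and diabetic (orange) retinas; points are single libraries, and lines join means with SD bars. Snhg11 means go from 7144 at ZT5 to 5142 at ZT17 in control, and the Malat1 means of both genotypes stay between 190073 and 227416.

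Over the day, Snhg11 changed in both genotypes, and Rian did so in values without a correction for GC content and length. Testing for any difference among the 6 time points with edgeR's quasi-likelihood test and Benjamini-Hochberg adjustment, 9.25% of all genes passed in control and 10.2% in diabetic retinas. Of the 7 RNAs, Snhg11 (adjusted p = 0.000758), Miat (0.00679) and Rian (0.0177) passed in control retinas, and Snhg11 (adjusted p = 0.00657), Mirg (0.0144) and Rian (0.0342) in diabetic ones. DESeq2 called these same 3 in each genotype, where 11.6% of all genes passed in control and 12.7% in diabetic retinas. With GC content and length trends removed, both Rian calls were lost (adjusted p = 0.893 in control and 0.775 in diabetic retinas, edgeR's test), as they were with no filter on low counts (0.0633 and 0.105). The Rian call in control was lost without ZT17 replicate 1 (adjusted p = 0.0647). In diabetic retinas it was lost when any of 7 libraries was left out, namely ZT1 replicates 1 and 3, ZT5 replicates 2 and 5, ZT9 replicate 1 and ZT13 replicates 4 and 5, with adjusted p up to 0.128.

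A rhythm of 24 h was then tested with the empirical JTK_CYCLE method that the study used, written anew, at an unadjusted p under 0.05 and a highest value more than 25% above the lowest. This fold was taken here between the highest and the lowest library, which was 1.57 or more for each of the 7 RNAs and so removed none of them. Its p comes from a permutation of series, as do the rhythm p-values below. By this rule 21.8% of 19086 expressed genes were rhythmic in control and 23.9% of 19145 in diabetic retinas. Of the 7 RNAs, 4 were rhythmic in each: Miat, Snhg11, Rian and Mirg in control, and Snhg11, Rian, Mirg and Meg3 in diabetic retinas. With the fold between the highest and the lowest mean of a time point, a reading added after seeing the data, 3 of the 7 were rhythmic in each genotype, without Rian, and 13.3% and 14.2% of all genes. By the rule on single libraries, rhythmic in both were 3 (Snhg11, Rian and Mirg), and Malat1 and Neat1 were rhythmic in neither. With an adjusted p under 0.05, which 8.25% and 9.79% of genes passed, there were 2 in each: Snhg11 and Miat in control, Snhg11 and Rian in diabetic retinas.

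Snhg11 was called by the adjusted rule in both genotypes. The control libraries at ZT5, the highest group, had normalized counts of 6303, 7276 and 7678 (lowest, median and highest of 6), and those at ZT17, the lowest group, had 4191.1, 4176.7, 5352.2, 6510.7 and 5479.0. A single ZT17 retina reached into the ZT5 range. The fitted cosine had a relative amplitude (the height of the peak above the mean) of 15.9% ± 2.99 (SE) and an acrophase, the time of its peak, at ZT6.81 ± 0.710 h (permutation p = 0.00118 over 30 libraries; adjusted p = 0.0217).

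In diabetic retinas Snhg11 was highest at ZT1, with 6936.9, 7349.6, 8455.8, 6825.3 and 8160.1 normalized counts, and lowest at ZT21, with 5312.4, 6004.1, 5379.7, 5356.6 and 6351.7. These groups did not overlap. Its relative amplitude was 14.4% ± 3.58 with an acrophase at ZT4.71 ± 0.915 h (permutation p = 0.000591 over 28 libraries; adjusted p = 0.0131). Over all rhythmic genes the relative amplitude had a median of 11.1% for control and 10.9% for diabetic libraries. The Snhg11 calls held when any 1 library was left out, with p up to 0.00347 in control and 0.00185 in diabetic retinas.

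Miat was rhythmic in control retinas. It was highest at ZT13, with 453.0, 428.3, 445.2, 417.4 and 484.2 normalized counts, and lowest at ZT21, with 307.9, 254.9, 406.2 and 359.5. The early-night libraries thus lay above all late-night ones, and the ZT17 values given above were as low as those of ZT21. Its relative amplitude was 14.0% ± 3.11 and its acrophase ZT8.03 ± 0.815 h (permutation p = 0.00139; adjusted p = 0.0240). The call was lost without the ZT17 libraries (permutation p = 0.0564). In diabetic retinas, where Miat was highest at ZT5 (464.9, 521.8, 450.6, 403.9 and 592.1), the relative amplitude was 7.49% ± 3.86 and permutation p = 0.254 over 28 libraries.

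Rian was highest at ZT5 in both genotypes. Control libraries at ZT5 had normalized counts of 532, 573 and 619 (lowest, median and highest of 6), and at ZT17, the lowest group, 395.1, 458.7, 462.0, 491.6 and 510.4. Diabetic libraries had 545.4, 628.7, 550.5, 538.5 and 694.4 at ZT5, and 532.9, 513.6, 468.5 and 412.0 at ZT13, their lowest group. In neither genotype did these extreme groups overlap. The relative amplitude was 6.60% ± 2.38 with an acrophase at ZT3.84 ± 1.46 h in control (permutation p = 0.0187; adjusted p = 0.124) and 9.28% ± 2.33 at ZT2.21 ± 0.915 h in diabetic retinas (p = 0.000496; adjusted p = 0.0117). After trends with GC content and length were removed within each library, p was 0.757 in control and 0.635 in diabetic retinas, so both calls rest on values without that correction. The relative amplitudes were then 4.58% ± 6.48 in control and 5.96% ± 4.66 in diabetic retinas, with larger errors than before it. Whether noise added by the correction had a part in the lost calls was not tested. The control call was also lost without ZT5 (permutation p = 0.283) or ZT17 (p = 0.129), and both were lost when the fold was taken between means of time points, with 1.24 in control and 1.23 in diabetic retinas.

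Mirg, the last gene of the imprinted group, had 308.3, 285.3, 281.9, 270.4 and 273.0 normalized counts in diabetic retinas at ZT1, and 201.2, 185.6, 238.8, 172.2 and 215.6 at ZT21, its lowest group. These groups did not overlap. Its relative amplitude was 15.8% ± 4.87 with an acrophase at ZT4.18 ± 1.12 h (permutation p = 0.00831; adjusted p = 0.0678), and the call was lost without ZT1 (p = 0.0963) or ZT5 (p = 0.0737). In control retinas the relative amplitude was 8.59% ± 3.67 at ZT7.31 ± 1.60 h with permutation p = 0.0496, next to the threshold. That call was lost with TMM scaling (permutation p = 0.0609), with a replicate block (p = 0.0553) and without the 3 libraries with lens RNA (p = 0.125). It was also lost without ZT9, ZT13, ZT17 or ZT21 (p from 0.0821 to 0.233), and in 22 of the 30 fits that left out 1 control library, with p up to 0.116.

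Meg3 was rhythmic by the unadjusted rule in diabetic retinas alone, a difference between genotypes that was itself tested below. It had 651.8, 583.0, 804.4, 705.0 and 661.4 normalized counts at ZT1 and 447.0, 509.4, 591.1, 499.6 and 544.4 at ZT21, with 1 library of each inside the range of the other. The relative amplitude was 9.71% ± 4.20 at ZT4.47 ± 1.59 h (permutation p = 0.0391, adjusted p = 0.178). The call was lost in 15 of the 28 fits that left out 1 diabetic library, with p up to 0.0850, and without ZT1, ZT5, ZT13 or ZT21, with p from 0.0849 to 0.196. It held with GC content and length trends removed (permutation p = 0.003345, relative amplitude 12.3% ± 3.92). In control retinas the relative amplitude was 7.62% ± 5.06 with permutation p = 0.524 over 30 libraries.

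Malat1 and Neat1 were not called rhythmic, with wide errors. The relative amplitude of Malat1 was 8.44% ± 3.50 in control (permutation p = 0.122 over 30 libraries) and 8.67% ± 4.70 in diabetic retinas (p = 0.254 over 28 libraries). At ZT17 the control libraries ranged from 150085 to 239775 and the diabetic ones from 146798 to 262205, so retinas of 1 time point spread over most of the range of all time points. The control p was under 0.05 with library totals alone (0.0499), without control ZT9 replicate 4 (0.0486) and without control ZT17 replicate 4 (0.0442). Neat1 had relative amplitudes of 7.14% ± 4.17 (permutation p = 0.369 over 30 libraries) and 7.25% ± 4.69 (p = 0.380 over 28 libraries).

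**Figure D3:**
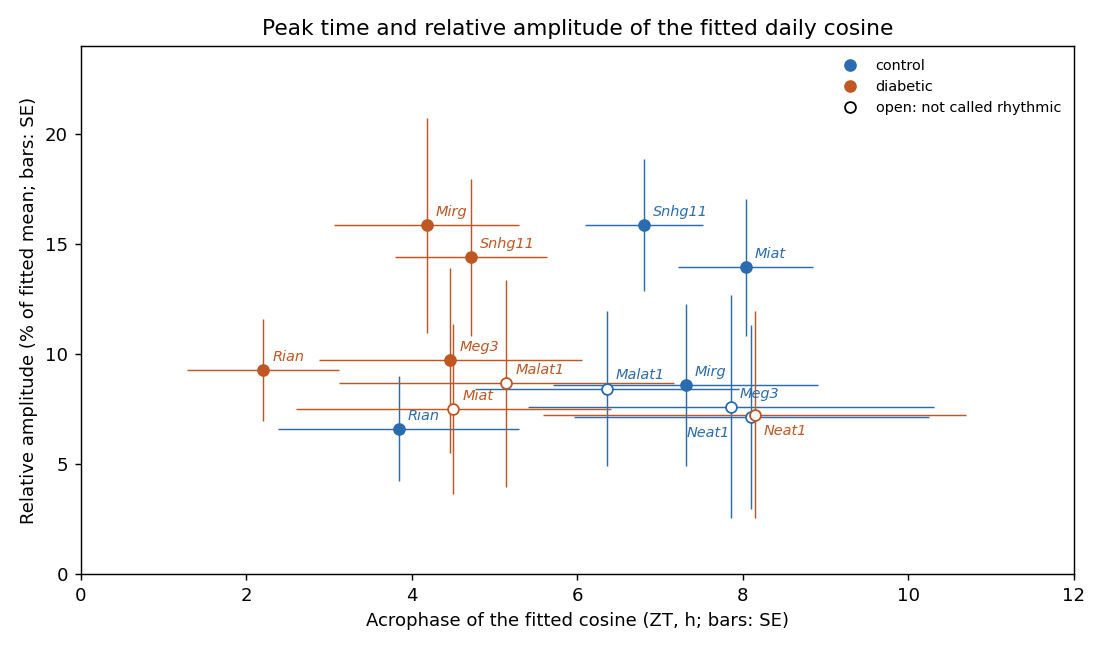
Acrophase (x axis, ZT in hours) and relative amplitude (y axis, percent of the fitted mean) of the 24 h cosine for the 7 RNAs in control (blue) and diabetic (orange) retinas, with SE bars; filled points were called rhythmic, open ones were not. All 14 acrophases lie between ZT2.21 and ZT8.14, in the light phase; with GC content and length trends removed (not plotted), those of Rian are at ZT22.2 and ZT23.7, in the dark phase.

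All 14 fitted acrophases, called or not, lay in the light phase, between ZT2.21 and ZT8.14, but with GC content and length trends removed 12 of the 14 did. Those of Rian then turned to the night, at ZT22.2 ± 5.12 h in control and ZT23.7 ± 3.00 h in diabetic retinas, where its rhythm was no longer called. Over all expressed genes, rhythmic or not, 52.8% had a fitted peak between ZT0 and ZT12 in control and 50.8% in diabetic retinas. Of the 14 without that correction, 8 were called rhythmic and all 8 lay in the light phase, and among all rhythmic genes the share was 50.8% for control and 48.1% for diabetic retinas. Several marker lists held rhythmic genes that all peaked at night. For the retinal pigment epithelium these were 3 of 6 expressed markers in control and 4 of 6 in diabetic retinas, for bipolar cells 4 and 5 of 6, and for Muller glia 3 and 4 of 6. For amacrine cells they were 2 of 6 in each genotype, and for microglia 1 and 2 of 6. Other lists were mixed: the rhythmic cone markers had 2 day and 2 night peaks in control and 3 and 2 in diabetic retinas, those of rods 1 and 1 and then 2 and 1, and those of endothelium 2 and 1 and then 0 and 2. Over all genes 21.8% and 23.9% were rhythmic. The part of these cell types in the courses of the 7 RNAs was not tested.

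The rhythms of the 7 RNAs were not shown to differ between genotypes. In edgeR's quasi-likelihood test of a difference in the cosine, 0 of 18814 genes (0%) and 0 of the 7 passed an adjusted p of 0.05, with 654 genes (3.48%) and 0 of the 7 at an unadjusted p under 0.05, and 0 genes in DESeq2. The test of whether the genotype difference varied among the 6 time points also called 0 of all genes and 0 of the 7. Without adjustment 506 genes (2.69%) and 1 of the 7, Miat (adjusted p = 1.00 in edgeR's test), passed there, and DESeq2 called 3 genes and 0 of the 7. The shift of the acrophase from control to diabetic retinas, negative where the diabetic one was earlier, was -2.09 ± 1.16 h (SE) for Snhg11, -3.13 ± 1.95 h for Mirg, -1.64 ± 1.72 h for Rian and -3.53 ± 2.07 h for Miat. It was -3.39 ± 2.92 h for Meg3, -1.22 ± 2.58 h for Malat1 and 0.04 ± 3.33 h for Neat1, and each of the 7 differences was less than 2 SE. For Rian the direction turned with GC content and length trends removed, to ZT22.2 in control and the later ZT23.7 in diabetic retinas.

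Among retinas of the same genotype and time point, many of these RNAs moved together. After the means of genotype and time point were removed, 15 of the 21 pairs were positively correlated over the 58 libraries and 0 negatively (permutation p of Pearson's r adjusted over the 21 pairs under 0.05). Over all 182777640 pairs of expressed genes in the same values, 16.9% reached the lowest of these 15 r, 0.277, and 16.9% were at or below -0.277. Of the 15, Malat1 with Rian and Neat1 with Mirg did not pass by Spearman's rho. With GC content and length trends removed, r was above 0 in 17 of the 21 pairs and below 0 in 4, each of them with Rian. Neat1 with Rian went from 0.222 to -0.356 and Rian with Snhg11 from 0.472 to 0.0359. Pairs without Rian moved as well, with Meg3 and Miat, 1 of the 15, going from 0.341 to 0.0461 and Malat1 and Meg3 from 0.0140 to 0.340. The strongest pair was Malat1 and Neat1, with Pearson r = 0.804 and Spearman rho = 0.794 (permutation p = 1e-05 for both, the smallest that the 100000 resamples can give; adjusted p = 4.20e-05 and 5.25e-05). Without the 2 libraries farthest from the median of Malat1 it was r = 0.786, within control retinas 0.818, within diabetic ones 0.798, and with GC content and length trends removed 0.708.

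Malat1 and Snhg11 followed with r = 0.678 and rho = 0.662 (permutation p = 1e-05, the smallest possible; adjusted p = 4.20e-05), with 0.614 without the 2 farthest libraries, 0.536 in control and 0.801 in diabetic retinas. Mirg and Snhg11 had r = 0.659 and rho = 0.579 (permutation p = 1e-05, the smallest possible; adjusted p = 4.20e-05), with 0.545 without the 2 farthest libraries. Inside the imprinted group, Meg3 and Mirg had r = 0.543 and rho = 0.506 (permutation p = 1e-05 for r; adjusted p = 4.20e-05), with 0.461 in control and 0.665 in diabetic retinas, and 0.383 without GC content and length trends. Rian and Mirg had r = 0.442 and rho = 0.429 (permutation p = 0.000500; adjusted p = 0.00150), but -0.05 once GC content and length trends were removed. Meg3 and Rian, although neighbours, had r = -0.107 and rho = -0.100 (permutation p = 0.423; adjusted p = 0.494), and r = 0.440 with those trends removed.

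**Figure D4:**
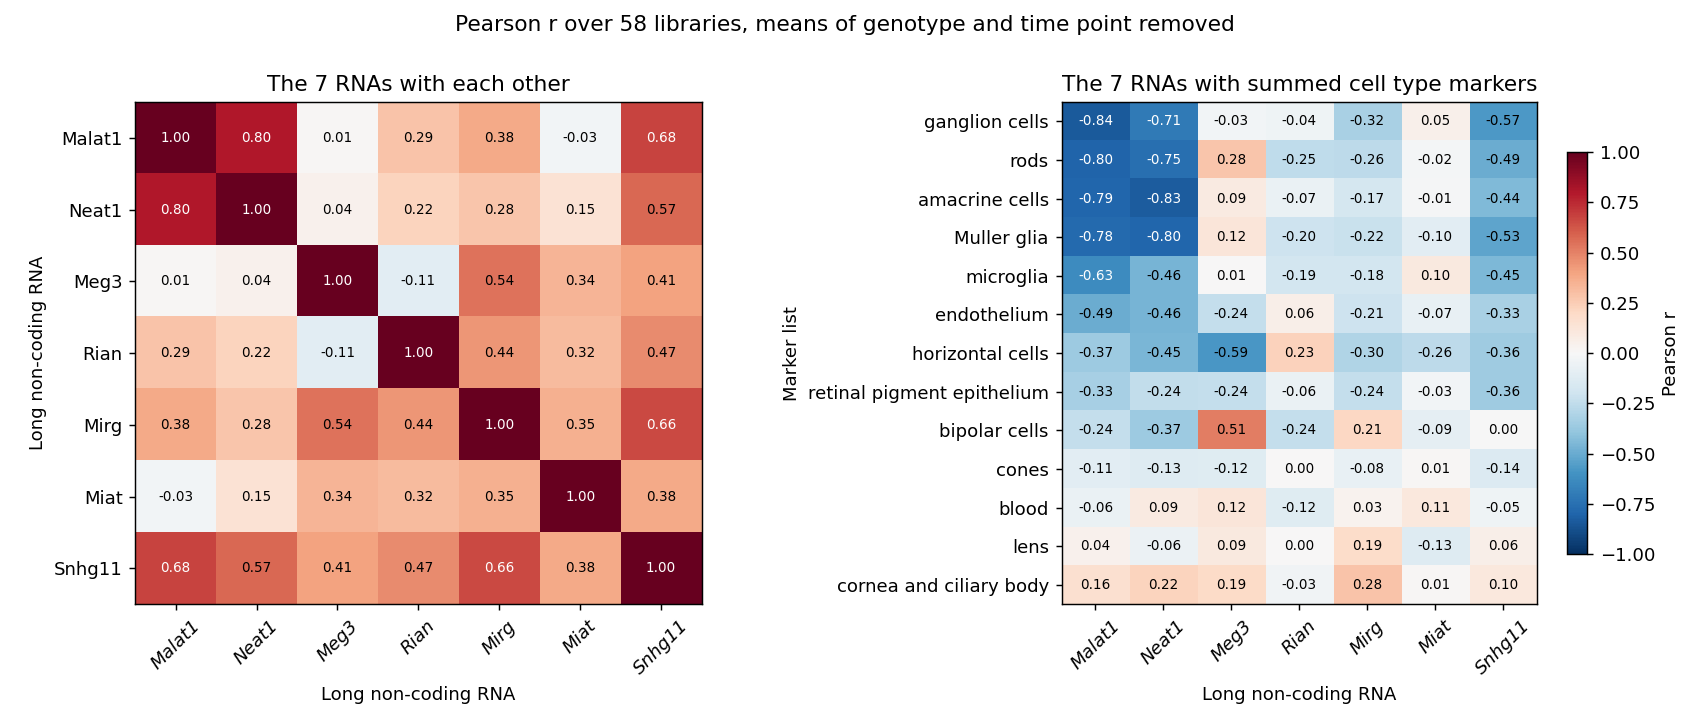
Pearson r over 58 libraries, with the means of genotype and time point removed, between the 7 RNAs (left) and between them and the summed markers of 13 cell types or tissues (right); the colour scale runs from -1 (blue) to 1 (red). Malat1 and Neat1 are at 0.80 with each other and between -0.71 and -0.84 with ganglion cells, rods, amacrine cells and Muller glia.

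Retinas with more Malat1 and Neat1 had lower levels of many cell type markers. These relations were computed with DESeq2 size factors alone. They were not repeated with another scaling or with GC content and length trends removed. Over 105 relations of the 7 RNAs with 13 marker sums, the mitochondrial share and the number of reads, Malat1, Neat1 and Snhg11 were each negatively correlated with 8 of the 13 marker sums and positively with 0 (permutation p of r adjusted over the 105 under 0.05). Of 19058 expressed genes outside the marker lists, these 7 RNAs included, 0.236% had an r of -0.324 or lower, the weakest r that passed, with 8 or more of the sums, and 0.247% had one of 0.324 or higher. By Spearman's rho 7 of the 8 passed for each, and the exceptions were the pigment epithelium for Malat1 (adjusted permutation p = 0.0992), bipolar cells for Neat1 (0.0815) and endothelium for Snhg11 (0.115). For Malat1 the lowest were ganglion cells (r = -0.840, rho = -0.847), rods (-0.799, -0.800), amacrine cells (-0.794, -0.807) and Muller glia (-0.777, -0.813). Each of these 4 had a permutation p of 1e-05, the smallest possible, and an adjusted p of 9.55e-05, and without the 2 farthest libraries r was from -0.823 to -0.756. For Neat1 the lowest were amacrine cells (r = -0.833, rho = -0.823) and Muller glia (-0.795, -0.775), with the same p.

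Within genotypes, Malat1 and the rod markers had r = -0.820 in control and -0.790 in diabetic retinas. Other relations differed more in size between genotypes, for all 3 RNAs. With the pigment epithelium markers r was -0.615 in control and 3.45e-05 in diabetic retinas for Malat1, -0.515 and 0.157 for Neat1, and -0.628 and 0.03 for Snhg11. With horizontal cells it was -0.125 and -0.569 for Malat1, -0.245 and -0.657 for Neat1, and -0.263 and -0.449 for Snhg11. For Snhg11 it was with amacrine cells -0.188 and -0.639, with Muller glia -0.295 and -0.748, with endothelium -0.107 and -0.491, and with rods -0.349 and -0.647. These differences between genotypes were not tested. Malat1, Neat1 and Snhg11 thus differed between single retinas together with most marker sums, and the part of tissue make-up or RNA quality in this was not tested. Meg3 was correlated positively with bipolar cell markers (r = 0.509, rho = 0.572; adjusted p = 0.000450) and negatively with those of horizontal cells (r = -0.586, rho = -0.584). Mirg was negative with ganglion cell markers by r alone (r = -0.324, adjusted p = 0.0480; rho = -0.278, adjusted p = 0.115), and Miat and Rian were correlated with none of the 13 at an adjusted p under 0.05. Miat was negative with the share of mitochondrial reads (r = -0.387, rho = -0.354; adjusted p = 0.0150), and none of the 7 passed with the number of reads.

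The genes with the most similar levels over the 58 libraries were searched among 19113 expressed genes, as a description in which all points share their library, its scaling and its time of day. Closest to Malat1 were Rbm5, a splicing regulator (r = 0.915), Cspp1, a centrosome protein (0.896), and Srek1, a splicing regulator of the SR type (0.886). Srek1 was also close to Neat1 (0.730), after 2410089E03Rik (0.743) and before Gm37334 (0.722). Meg3 was closest to Odf2 (0.814), Ssc5d (0.792) and Rnpepl1 (0.780), and Snhg11 to Gm45540 (0.797), Rufy2 (0.796) and Tbce (0.771). Mirg and Miat had the collagen gene Col6a1 in common, with 0.683 for Mirg, before Plekhn1 (0.681) and Cttnbp2 (0.672), and 0.604 for Miat, after Dgkq (0.632) and Polr1b (0.620). With the means of genotype and time point removed, the values for Miat fell to 0.335 with Col6a1, 0.405 with Dgkq and 0.372 with Polr1b, and that for Mirg and Col6a1 was 0.595. Those for Snhg11 fell as well, to 0.610 with Gm45540, 0.608 with Rufy2 and 0.550 with Tbce. The lowest values were those of Rian, with Vps41 (0.580), Zfp157 (0.567) and AC123738.1 (0.561), or 0.468, 0.489 and 0.377 with those means removed.

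Several of the RNAs host small RNA genes, which the table counts separately. Of 14 small RNA genes inside Mirg on its strand, 5 lay wholly in introns and all 5 had reads, while the 4 that lay wholly in exons had none. Mir453 had a mean of 5.45 raw reads per library (up to 15, in 57 of 58 libraries), Mir541 4.07 (up to 10, in 57) and Mir496a 3.53 (up to 9, in 54). Libraries of this kind are made from longer RNA, so reads over these genes do not measure the mature microRNAs. The mature sequences of these 3 are shown from RefSeq, GRCm38.p6, 5' to 3', with the seed (bases 2 to 8) in capitals, since miR-453 and miR-496a-5p share theirs.
mmu-miR-453: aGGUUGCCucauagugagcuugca
mmu-miR-496a-5p: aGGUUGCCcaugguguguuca
mmu-miR-496a-3p: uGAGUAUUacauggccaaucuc
mmu-miR-541-5p: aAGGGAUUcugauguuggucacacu
mmu-miR-541-3p: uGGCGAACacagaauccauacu

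The intronic Gm25129, annotated as a small nucleolar RNA within Snhg11, had a mean of 14.1 raw reads per library, up to 29, and reads in 58 of 58 libraries. In contrast, the 17 small RNA genes inside Rian, of which 9 are intronic, were all listed at 0, and so were the 4 inside Meg3, the 4 inside Miat, the 3 inside Neat1 and the 1 inside Malat1. Every wholly exonic small RNA gene was listed at 0 in all libraries, and how the counting treated reads that overlap a host exon is not given in the sources used here.

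Proteins and RNAs that work with these genes, or lie next to them, were followed in lists. Of 15 paraspeckle protein genes tested, 0 were higher and 0 lower in diabetic retinas, with a median log2 fold change of 0.01 against 0.00 over all genes. As 3.11% of all genes passed, a count of 0 in a list of this size or the sizes that follow says little about the list. Of the 15, 2 were rhythmic in each genotype, where 21.8% of all genes were in control and 23.9% in diabetic retinas. Pspc1, a core paraspeckle protein, was rhythmic in both, with a relative amplitude of 8.15% ± 1.92 at ZT6.02 in control (permutation p = 0.000732 over 30 libraries) and 6.78% ± 2.01 at ZT5.87 in diabetic retinas (p = 0.0349 over 28 libraries). Nono was rhythmic in control with a night acrophase at ZT19.2 (permutation p = 0.0293 over 30 libraries), and Sfpq in diabetic retinas with a day acrophase at ZT2.68 (p = 0.0439 over 28 libraries).

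Of 17 nuclear speckle and SR splicing factor genes, 0 differed between genotypes, and 1 was rhythmic in control (Srsf11, ZT8.05) and 1 in diabetic retinas (Srsf6, 13.6% ± 3.57 at ZT6.42), against the same 21.8% and 23.9% of all genes. Of the 8 genes around Malat1 and Neat1, Cdc42ep2, an effector of the GTPase Cdc42, was higher in diabetic retinas, with a log2 fold change of 0.42 (SE 0.10; adjusted p = 0.00831 in edgeR's test), where 1.66% of all genes were, and 0 were rhythmic. Of 6 genes around Meg3, Rian and Mirg, 4 were tested and 0 differed between genotypes, and Rtl1 was listed at 0. Of these 4, Dync1h1, the cytoplasmic dynein heavy chain, and Ppp2r5c, a phosphatase 2A subunit, were rhythmic in both genotypes with night acrophases, at ZT19.6 and ZT19.2 in control and ZT18.8 and ZT17.5 in diabetic retinas. The acrophases of the non-coding RNAs beside them are given above, with the shift of Rian to the night once GC content and length trends were removed.

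The other small nucleolar RNA host genes were rhythmic at a share of 5 of 14 in control and 4 of 14 in diabetic retinas, against 21.8% and 23.9% of all genes, and 0 differed between genotypes. In control, 4 had a day acrophase and 1, Snhg12, a night one (ZT20.5), and in diabetic retinas all 4 had a day acrophase. The largest was Snhg15 in control, with 21.4% ± 4.60 at ZT6.89 (permutation p = 0.000219 over 30 libraries), and Snhg17 had 17.0% ± 3.61 at ZT4.94 in diabetic retinas (p = 4.20e-05 over 28 libraries). Among 13 other long non-coding RNAs, 0 differed between genotypes and 4 were rhythmic in each, against 21.8% and 23.9% of all genes. In each genotype 3 of them had night acrophases, namely Peg13, an imprinted RNA (ZT18.6 in control, ZT18.5 in diabetic retinas), Vax2os and Six3os1, and 1 a day acrophase, Ftx in control and Crnde in diabetic retinas.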

How the data were processed

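Whole-retina RNA was measured in 58 libraries, grouped by genotype and time point from their titles. The authors checked reads with FastQC, aligned them with STAR 2.7.4a (genome GRCm38.p5, Gencode M15) and obtained counts per gene with HTSeq 0.11.1, per the submitters' processing notes and the methods. They deposited raw counts, not normalized or filtered, which are the values used here. Its strand setting, which decides where reads on overlapping genes are placed, is not given in the sources used here.

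Counts were tested with edgeR 4.0.16 (quasi-likelihood test, TMM, genes kept by its default filter with a count minimum of 10, Benjamini-Hochberg adjustment over all genes kept) in R 4.3.3. Genotype was tested in 1 fit of both groups, and time points in 1 fit of 12 groups. The study tested both with DESeq2 (1.26.0 per its methods), whose model formula is not given in the sources used here. Normalized counts were divided by DESeq2 1.42.0 size factors. Expressed genes had a median above 4 in a genotype. The empirical JTK_CYCLE test was written anew in Python 3.11.15 (numpy 2.4.6, scipy 1.17.1, pandas 2.3.3) with a period of 24 h, 6 phases, 5 widths and 1000000 shuffled series. Cosines were fitted by least squares. Correlations and ratios used 100000 permutations, correlations on log2(normalized count + 1). edgeR's genotype test over all time points and at ZT1, the JTK_CYCLE test and the cosine fit were tried on simulated data. The other methods were not. Each library holds enough reads that the fewest on any of the 7 genes was 127.

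Named were all 7 genes, up to 2 genes per list and direction with the smallest adjusted p, the 3 genes most like each, and the 3 small RNA genes with the most reads per host. The genes and lists were chosen with earlier results of these data known. Alternatives were other scalings, filters and tests, a correction for GC content and length, a replicate block, and each library or time point left out. The package the study used for differential rhythm was replaced by edgeR's test and a harmonic analysis of variance. Snhg16 was not analysed here.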

Additional observations from a re-analysis of the deposited data

Results flagged for a closer look

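In 84 groups of 4 to 6 libraries (7 RNAs at 6 time points in 2 genotypes), 4 held a library whose gap to the others exceeded Dixon's limit, in 3 different libraries; chance alone marks about 1 in 20 groups. Meg3 had 892.7 normalized counts in control ZT9 replicate 4, where the other 4 ranged from 552.1 to 621.2, a gap of 0.797 of the whole range. Diabetic ZT5 replicate 5 was the highest for Meg3 with 860.4 (others 568.1 to 642.3, gap 0.746) and for Mirg with 413.6 (others 226.3 to 268.1, gap 0.777). Miat had 383.0 in control ZT17 replicate 3 (others 319.7 to 329.2, gap 0.85). Without diabetic ZT5 replicate 5, the Mirg log2 fold change at ZT5 was 0.16 in place of 0.35, and without control ZT9 replicate 4 the rhythm p of Malat1 in control was 0.0486 in place of 0.122.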

How the results depend on the processing

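No alternative brought any of the 7 RNAs past the adjusted threshold between genotypes, over all time points, at a single one or in rhythm. The number rhythmic in control was 4, and 1 without ZT17 or 2 with an adjusted p. In diabetic retinas it was 4, and 2 without ZT1, without ZT5 or with an adjusted p, and leaving out single libraries gave 3 to 5 in control and 3 to 4 in diabetic retinas. The log2 fold change over all time points was 0.009455 for Malat1 with day libraries only and from -0.02907 to 0.008632 with single libraries left out. For Neat1 it was -0.000721 with GC content and length trends removed together with the replicate block, and from -0.01491 to 0.02436 with single libraries left out. With GC content and length trends removed, the correlation of Malat1 with Rian was -0.2495, of Miat with Rian -0.09131 and of Rian with Mirg -0.05487, and the Rian test among time points gave adjusted p = 0.893 in control and 0.775 in diabetic retinas (0.0633 and 0.105 without a filter on low counts). In the joint fit of those trends and the block, Meg3 (0.0177) and Miat (0.0458) passed that test in diabetic retinas. The libraries share replicate numbers, but of 26 pairs with the same number 15 had a correlation above 0.1 (from -0.20 to 0.55, median 0.11) and 11 of 26 diabetic libraries were closest to their own number, where a random draw would give 5.23. As the pairs did not all exceed 0.1, the numbers were not taken as pairing in the main tests. That rule is not a test of pairing, and an effect shared by libraries of the same number was not tested. At ZT13 alone all 4 pairs exceeded 0.1, and with the block Rian had a log2 fold change of -0.17 there (adjusted p = 0.990 in edgeR's test). With the replicate block, 3 RNAs were rhythmic in control (Mirg permutation p = 0.0553) and 4 in diabetic retinas, and 0 differed between genotypes. Without the 3 libraries with lens RNA, the rhythm of Mirg in control was the only call of genotype, time or rhythm among the 7 RNAs that changed (permutation p = 0.125). The relations with marker sums were not computed without them. With the fold between means of time points, 3 were rhythmic in each genotype, without Rian. Leaving out the lens libraries, the fold between means, the joint fit of GC and length trends with the block and the GC-corrected correlations were added after seeing the data. The cause of the changes was not tested. The lowest count of any of the 7 RNAs in a library was 127 reads, and the SE of the log2 fold change between genotypes was 0.04 for Rian and 0.06 for the far more abundant Malat1.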
